A study of Mus musculus with 2 samples.

Results

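Accessible chromatin was described at 10 genes of the NRF2 antioxidant response, out of 21670 protein-coding genes with an annotated coding transcription start site (TSS) on chromosomes 1 to 19 and X. The genes were given by name, not by their signal: Nfe2l2, Keap1, Nqo1, Hmox1, Gclc, Gclm, Txnrd1, Slc7a11, Gsr and Srxn1. The study measured DNase I accessibility in the kidney, from B6CASTF1/J females of 8 to 10 months, in 2 libraries numbered as biological replicates 1 and 2 of 1 group. B6CASTF1/J mice are F1 hybrids of C57BL/6J and CAST/EiJ, and the lists are on the C57BL/6J-based mm10 assembly. The effect of CAST/EiJ reads that map less well was not tested. The labels give the libraries separate biosamples under a common donor entry and do not say that they came from separate animals, so the spread between them may be technical. No treated, mutant or other-tissue sample was included, so the values describe untreated tissue and no test across conditions was possible.

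DNase-seq reads the ends left by the enzyme DNase I where DNA is accessible. A peak marks an accessible region, and a footprint is a short stretch within it that was cut less than its surroundings. NRF2, the product of Nfe2l2, is a basic leucine zipper transcription factor that pairs with small MAF proteins on antioxidant response elements. KEAP1 binds NRF2 and hands it to the CUL3 ubiquitin ligase for degradation, and oxidants or electrophiles that modify KEAP1 cysteines let NRF2 accumulate. BACH1, which heme displaces, occupies many of the same elements as a repressor. In the kidney, the pathway is known for the protection of tubular cells from ischemic and toxic injury. These statements are background and not results of these libraries.

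The response element was searched as TGACNNNGC on both strands in regions found in both libraries. The search used the mm10 sequence alone, so matches on the CAST/EiJ allele were not examined. The TGACTCAGC form also holds an AP-1 site (TGANTCA), so a match in that form can be read by either family of factors. The matches that footprints of both libraries covered in full lie upstream of Hmox1 and Gclc. Their sequences are shown from the GRCm38.p6 genome (mm10), minus strand, 5′ to 3′, with the TGACNNNGC matches in capitals. The first lies at chr8:75083921-75084084, the second at chr8:75089680-75089800 and the third at chr9:77750675-77750823, and all 3 are intergenic.
Hmox1 distal upstream region: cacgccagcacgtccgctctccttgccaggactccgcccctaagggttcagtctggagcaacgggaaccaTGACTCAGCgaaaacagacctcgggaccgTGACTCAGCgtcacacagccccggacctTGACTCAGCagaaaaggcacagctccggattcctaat
Hmox1 proximal upstream region: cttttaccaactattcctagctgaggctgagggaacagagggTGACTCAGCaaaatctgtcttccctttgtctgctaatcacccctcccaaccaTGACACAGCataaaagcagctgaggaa
Gclc upstream region: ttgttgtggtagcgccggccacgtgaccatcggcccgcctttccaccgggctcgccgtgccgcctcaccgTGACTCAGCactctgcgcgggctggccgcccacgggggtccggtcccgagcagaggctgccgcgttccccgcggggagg

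The first stretch held 3 copies of TGACTCAGC, whose starts lay 28 and 29 bases apart. The second held 1 TGACTCAGC and 1 TGACACAGC, with starts 52 bases apart. The third held 1 TGACTCAGC. All 6 matches lay with all 9 bases inside a footprint of replicate 1 and a footprint of replicate 2. Among 77375 distal regions of the whole series, 11 held at least 2 TGACTCAGC matches, and 1, the distal upstream region of Hmox1, held 3.

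**Figure D1:**
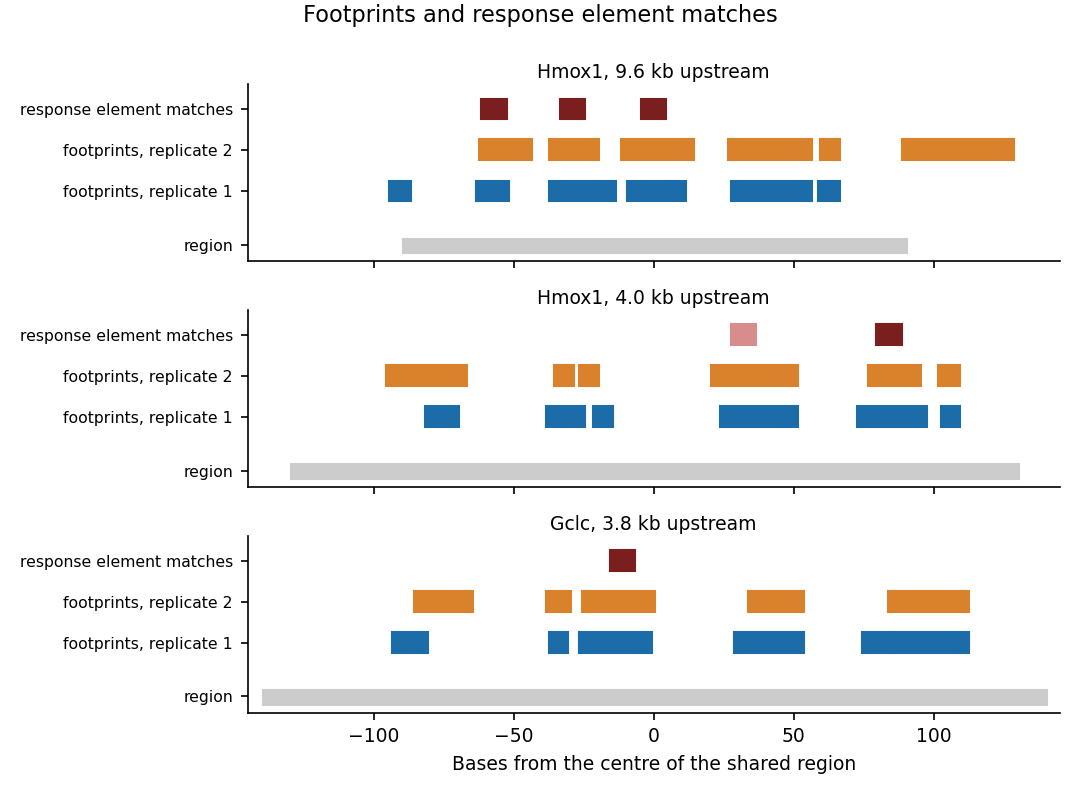
Footprints of replicate 1 (blue) and replicate 2 (orange), response element matches (dark red for TGACTCAGC, light red for the other form) and the shared region (grey), by distance in bases from the centre of the region. Each of the 6 matches sits within a footprint of both libraries, and the distal Hmox1 region has 6 footprints in each library.

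Regions were compared by the deposited peak signal, taken as the strongest peak of each library within a region shared by both. It is the value of 1 peak and not a sum over the region. A promoter region overlapped the 500 bases on either side of a coding TSS, and a distal region lay in the gene body or within 10 kb of it and outside every such window. All 10 genes had an open promoter, that is, a peak of both libraries in that window, where 63% of all protein-coding genes had one. Their median promoter signal of 4.35 was close to the 4.78 of all 13643 open promoters, and 5 of the 10 were above that median. The list as a whole was therefore open but not placed toward the top of open promoters, and its members spanned nearly the full range. In bulk tissue, a lower signal from fewer cells with the region open and from less cutting in each cell cannot be told apart.

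Nfe2l2 itself had the strongest promoter of the 10. Its region at chr2:75704501-75704760, over the first exon and start site, had a signal of 22.9 in replicate 1 and 20.5 in replicate 2, a mean of 21.7 ± 1.75 (SD, n = 2). This placed it at rank 117 of 13643, the 99.1 percentile. The noncoding transcript E030042O20Rik starts beside it on the opposite strand, so the signal cannot be assigned to either start alone. A weaker promoter region of Nfe2l2, in the first intron at chr2:75703641-75704160, had 4.66 and 5.40. An adjoining intronic region centred at +1121 from the TSS had 7.69 and 8.20, and was the strongest distal region of the gene. The 3 regions lay close together over the start site and the first part of the first intron. By the strongest peak, all had nearly equal values in the libraries.

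Keap1, which encodes the sensor that holds NRF2 back, had one of the weaker promoters. Its 2 promoter regions had signals of 1.67 and 2.67 (chr9:21238721-21238940) and of 1.69 and 2.29 (chr9:21239001-21239420), and both were GC-rich, at 75.9% and 75.7%. The stronger had a mean of 2.17 ± 0.706 (SD, n = 2), rank 10140 of the open promoters. The strongest region in the Keap1 window lay far from the start. At chr9:21220561-21220780, intergenic and +18143 from the nearest Keap1 TSS, beyond the 3′ end of the gene, it had 8.47 and 11.9, a mean of 10.2 ± 2.44, and was the strongest of all 52 distal regions. A region upstream at −2189 was weaker and differed between the libraries, at 2.25 and 4.60.

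The glutathione genes differed widely. Gclc, the catalytic subunit of glutamate-cysteine ligase, had a promoter signal of 4.32 and 6.08, a mean of 5.20 ± 1.24 (chr9:77754401-77754640). Gclm, the modifier subunit of the same enzyme, had 6.21 and 5.24, a mean of 5.73 ± 0.682 (chr3:122245421-122245600). The ranges of the 2 subunit genes overlapped, and both lay within the middle 50% of open promoters (2.11 to 8.66). Their distal regions were unlike. Gclc had 8, of which the strongest, at −3775 (chr9:77750621-77750900), had 5.94 and 7.91 and holds the footprinted match shown above. Gclm had 2, and the stronger, in an intron at +1339, had 1.00 and 1.10. Both were low in both libraries.

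Slc7a11, the cystine importer subunit that feeds glutathione synthesis, had the weakest promoter. Its signal was 0.298 in replicate 1 and 0.342 in replicate 2, a mean of 0.320 ± 0.0312 at chr3:50443441-50444052, rank 13486 of 13643. No footprint of either library lay in this region. It had 12 distal regions, the most of the 10, over a gene annotated at 551089 bases. Genes of like length had a median of 11. The strongest, in an intron at +61891, had 1.26 and 2.83. Each of its 12 distal regions had a mean of 2.04 or less, and the promoter was among the weakest regions of its own gene. It was on the shorter, stricter peak list of replicate 2 only.

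Gsr, glutathione reductase, had a promoter signal of 2.47 and 2.73, a mean of 2.60 ± 0.186 (chr8:33653321-33653560), and 2 weaker promoter regions. An intronic region at +19942 (chr8:33673061-33673300) was higher, at 6.01 and 4.12, and a second at +21062, over an exon, had 3.44 and 2.18. Both were above the promoter by mean, though the second fell below it in replicate 2.

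The thioredoxin genes followed. Txnrd1, the cytosolic thioredoxin reductase, had the second strongest promoter of the list, with 9.24 and 8.53, a mean of 8.89 ± 0.505 at chr10:82858921-82859260. This region lies at an internal coding start, inside the longest annotated transcript. Its strongest distal region, beyond the gene at +41369 and nearer to the start of Eid3, had 1.94 and 4.41. Srxn1, sulfiredoxin, which restores overoxidised peroxiredoxins, had a promoter signal of 3.03 and 3.93, a mean of 3.48 ± 0.637 (chr2:152105361-152105740), and a second promoter region at chr2:152105841-152106200 of 3.03 and 2.43. Its only distal region, at +6586, had 2.65 and 5.69. These 2 distal regions differed more than 2-fold between the libraries, while the promoter regions did not.

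Hmox1, heme oxygenase, which breaks down heme, had a promoter signal of 7.09 and 6.55, a mean of 6.82 ± 0.382 (chr8:75093461-75093720). Its distal upstream region at −9611 (chr8:75083921-75084100) was higher in both libraries, at 8.43 and 9.48, a mean of 8.95 ± 0.746. Its proximal upstream region at −3951 (chr8:75089541-75089800) had 6.69 and 4.14, a mean of 5.41 ± 1.81. As background, Hmox1 is known to have a proximal and a distal upstream enhancer with repeated stress response elements, and whether the 2 regions are those enhancers was not tested. Nqo1, the quinone reductase often used as a readout of NRF2, had 4.10 and 2.89, a mean of 3.50 ± 0.854, at its start (chr8:107403041-107403380). A second promoter region at −384 (chr8:107403441-107403740) had 1.44 and 2.08. An intronic region at +13446 had 4.08 and 4.81, above the promoter in replicate 2 but not in replicate 1.

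**Figure D2:**
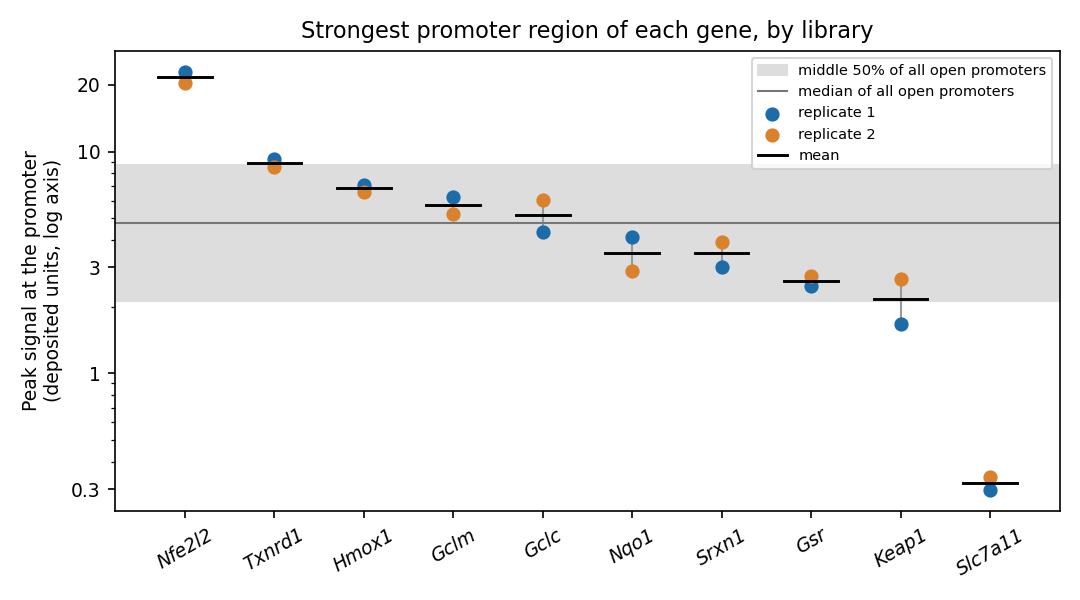
Signal of the strongest promoter region of each gene (log axis, deposited units) in replicate 1 (blue) and replicate 2 (orange), with their mean (black), the median of all open promoters (line) and their middle 50% (grey). Nfe2l2 lies far above the other 9 genes and Slc7a11 far below them.

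The order of promoter signal was Nfe2l2, Txnrd1, Hmox1, Gclm, Gclc, Nqo1, Srxn1, Gsr, Keap1 and Slc7a11. The library values of Gclm and Gclc overlapped, as did those of Nqo1 and Srxn1 and those of Gsr and Keap1. The other neighbours in this order did not overlap in their library values. In 5 of the 10 genes (Keap1, Hmox1, Gclc, Slc7a11 and Gsr), the strongest distal region was above the promoter in both libraries, where 22% of the 11749 genes with both kinds of region showed this. By the mean of the libraries there were 7 of 10, with Nqo1 and Srxn1 added, where 28% of those 11749 genes showed this.

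**Figure D3:**
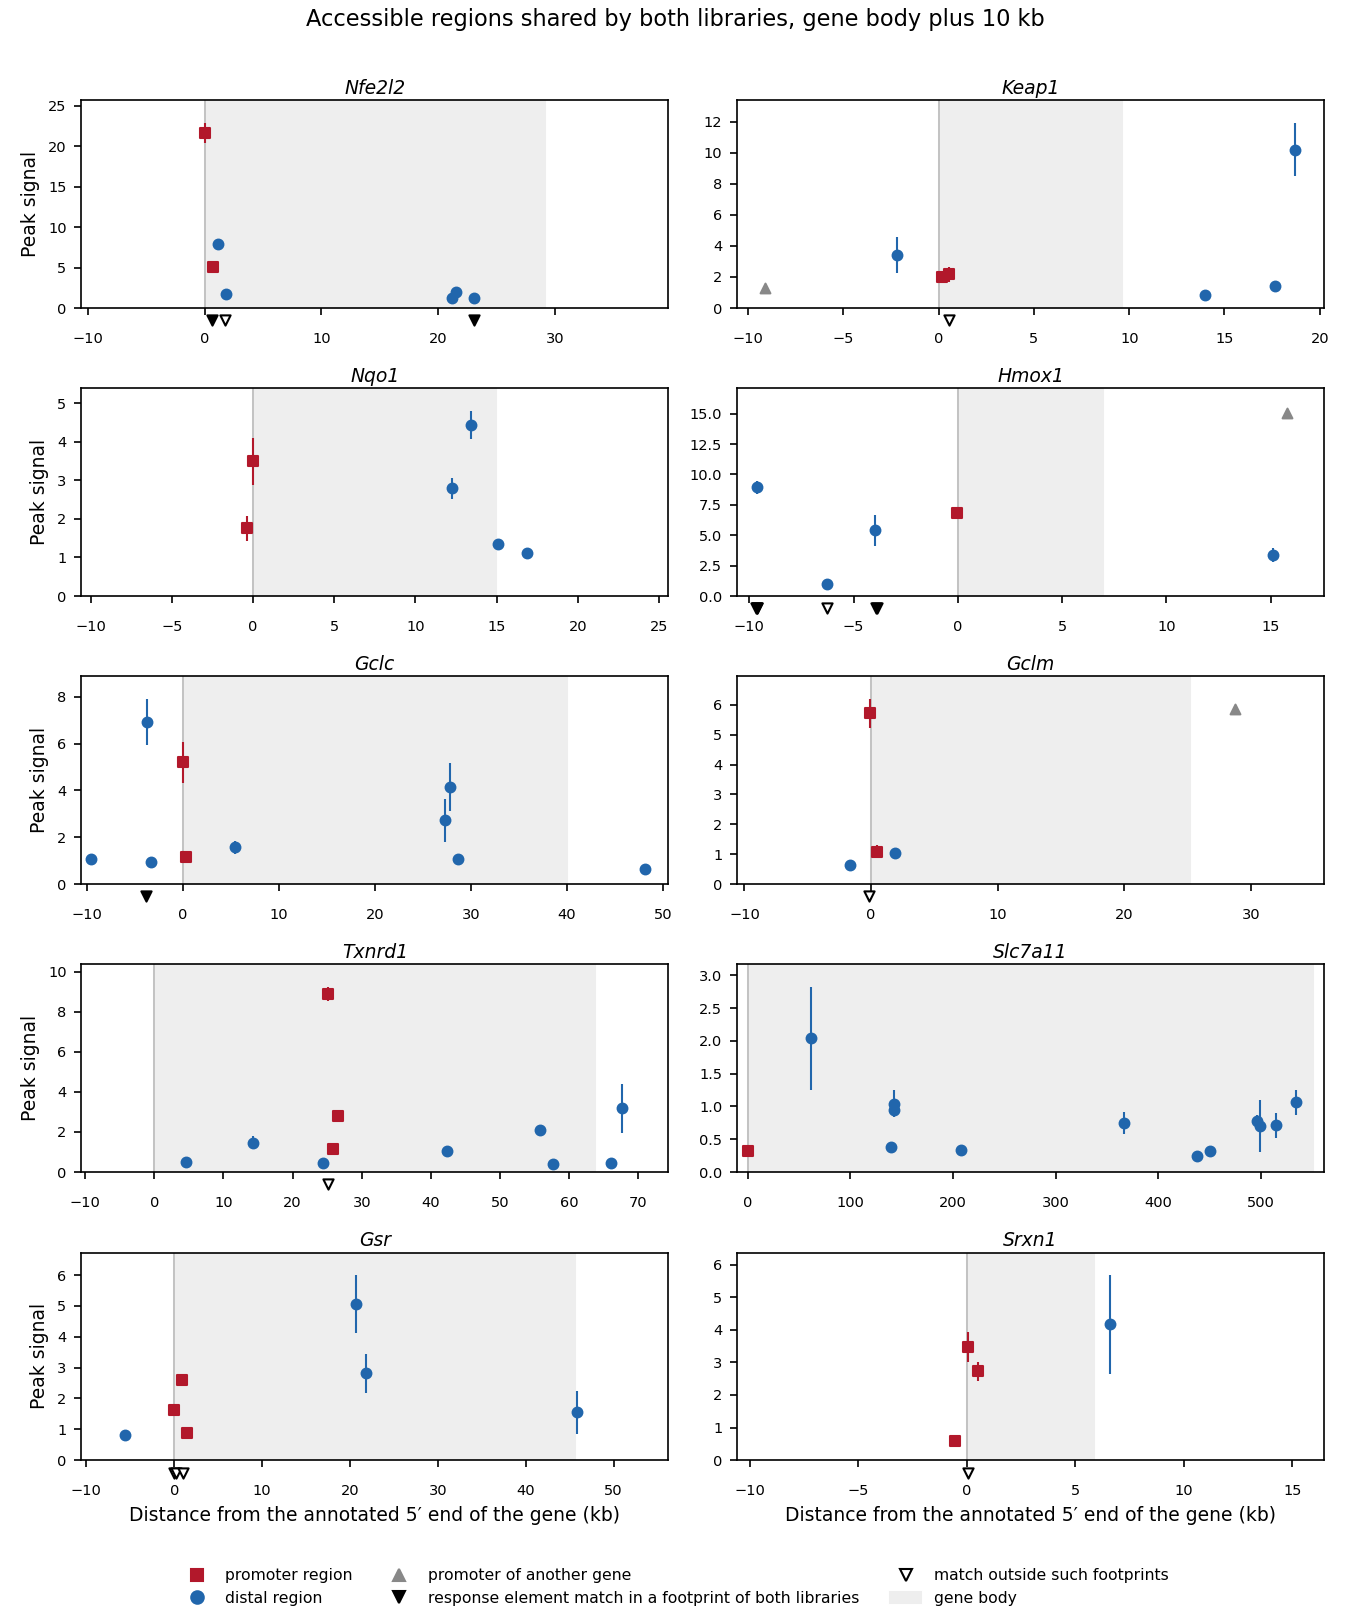
Mean signal of each region shared by both libraries (points, with lines joining the 2 library values) by distance in kb from the annotated 5′ end of each gene. Red squares are promoter regions, blue circles distal regions and grey triangles promoters of other genes. Triangles on the axis are response element matches, filled where they overlap a footprint of both libraries. The filled ones lie at Nfe2l2, Hmox1 and Gclc.

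All 10 genes had at least 1 distal region, where 72.4% of all protein-coding genes did. The 52 distal regions comprised 30 in introns, 20 intergenic and 2 over exons. Of them, 18 lay nearer to the TSS of another gene, a count given without a share over all distal regions. The median number of distal regions was 4 for the 10 genes and 2 for all genes. Gclc, with 8, had more than 92.5% of genes of like length, and Hmox1, with 4, more than 88.9% of them. Gclm, with 2, and Srxn1, with 1, each equalled the median of genes of their length. Their median signal was 1.18, beside 0.918 for all distal regions. A mean under 1 was found in 19, where the median of all distal regions was itself under 1. A mean of 5 or more was found in 6, where 2.60% of all distal regions reached 5. The 6 were those of Keap1 at +18143, Hmox1 at −9611 and −3951, Nfe2l2 at +1121, Gclc at −3775 and Gsr at +19942. The windows also held 3 promoter regions of other genes (S1pr5, Mcm5 and Dnttip2), which were not counted for the 10 genes.

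**Figure D4:**
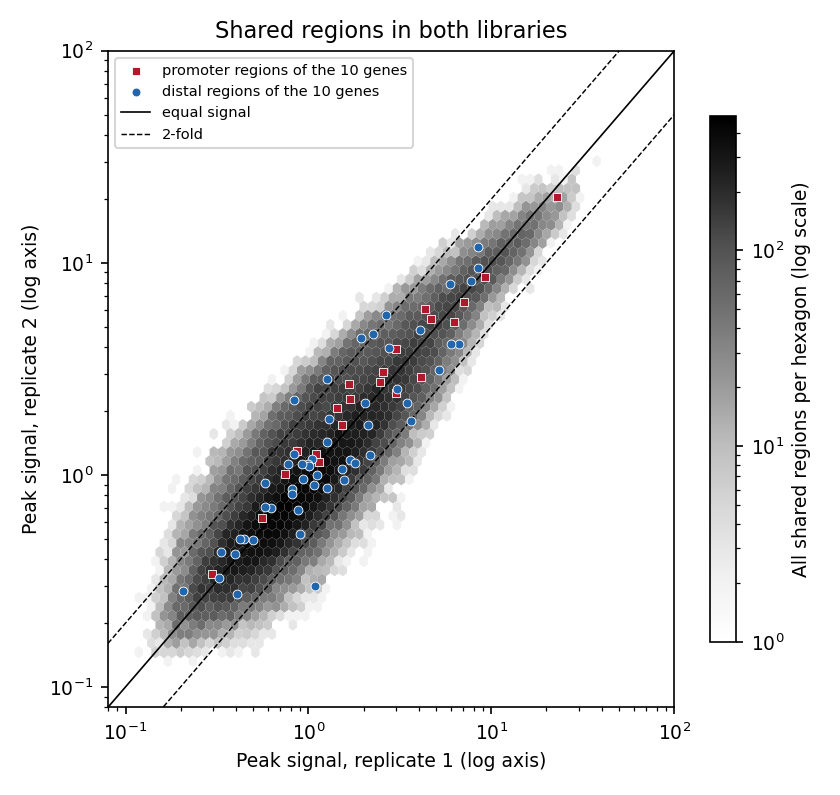
Signal of every shared region in replicate 1 and replicate 2 (log axes, grey by number of regions), with the promoter regions (red squares) and distal regions (blue circles) of the 10 genes, the line of equal signal and the 2-fold lines. No promoter region and 7 distal regions lie outside the 2-fold lines.

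The libraries gave similar promoter values. By the strongest peak, none of the 21 promoter regions of the 10 genes differed more than 2-fold, where 2.99% of all promoter regions did. The log2 ratio of the second library over the first had a median of 0.19, beside 0.14 for all promoter regions. Of the 52 distal regions, 7 differed more than 2-fold, a share of 13.5% beside 14.2% of all distal regions. Replicate 2 was higher at Keap1 −2189, Txnrd1 +41369, Slc7a11 +61891, Srxn1 +6586 and Gsr +45092, and replicate 1 was higher at Gclc +27295 and Slc7a11 +498731. The strongest distal regions of Txnrd1, Slc7a11 and Srxn1 were among them. That of Slc7a11 was above the promoter, and that of Txnrd1 below it, in both libraries, while that of Srxn1 was below its promoter in replicate 1 and above it in replicate 2. Some of these calls depend on the use of the strongest peak. The Gclc region at +27295 had 2 peaks in replicate 2, and its sums were 3.65 and 3.55. By sums, the intronic promoter region of Nfe2l2 (4.66 and 10.4) and the Slc7a11 promoter (0.298 and 0.642) differed more than 2-fold.

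Footprints were counted from their positions alone, since the deposited files give no value for each. Of the 21 promoter regions, 14 held a footprint of both libraries, where 77.4% of all promoter regions did. Of the 52 distal regions, 40 did, where 63.2% of all did. In all, 132 footprints of both libraries lay in these regions, 45 in promoter and 87 in distal regions. The most in 1 region were 6, in the Txnrd1 promoter and in the distal upstream region of Hmox1. The Nqo1 region at −384 and the Slc7a11 promoter were among the 7 promoter regions with none. The cut-rate file of the same reads listed 89.7% of the bases of the promoter regions and 90.2% of the bases of the distal regions at a false discovery rate (FDR) under 0.05 in both libraries, beside 93.1% and 85.1% over all promoter and distal regions.

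A TGACNNNGC match was found in 7 of the 21 promoter regions, where 15.2% of all promoter regions held one, and in 6 of the 52 distal regions, where 13.2% did. The promoter regions of the 10 genes were wider than usual, with a median of 340 bases beside 260. In windows of a fixed 300 bases, a match was found at 33.3% of the promoter regions of the 10 genes and at 14.9% of all promoter regions. Each share was nearly the same as over the full regions. The part of region width in these shares was not tested. There were 17 matches in all, at 8 of the 10 genes, and none in a region of Nqo1 or Slc7a11. No share over all genes is given for this count. A match was counted in a footprint of both libraries where at least 1 of its bases overlapped one, here and in all shares below. Of the 8 promoter matches, 1 lay in a footprint of both libraries, in 1 promoter region, where 5.65% of all promoter regions held such a match. Of the 9 distal matches, 7 did, in 4 distal regions, where 2.35% of all distal regions held one. The counts are small, and the difference between the kinds was not tested. Over all regions, the share of matches in footprints was higher in promoter regions, at 35.8%, than in distal regions, at 16.7%.

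The strength of a region moves with the share of its matches in footprints. Over distal regions with a mean signal of 5 or more, 52.2% of TGACNNNGC matches lay in a footprint of both libraries, beside the 16.7% of all. For TGACTCAGC the share was 53.8% over the distal regions with a mean signal of 5 or more, beside 25.2% over all distal regions. The Hmox1 and Gclc upstream regions, with means of 5.41 to 8.95, belong to the stronger group and held 6 of the 7 footprinted distal matches. The 53.8% for TGACTCAGC was 14 of only 26 matches. These include the 5 of Hmox1 and Gclc, all in footprints, so that share is not independent of the 10 genes. The part of signal in these counts was not tested. At the level of genes, 3 of 10 (Gclc, Hmox1 and Nfe2l2) had a TGACNNNGC match in a footprint of both libraries, where 14.5% of all protein-coding genes did, and 2 of 10 (Gclc and Hmox1) had a TGACTCAGC match in one, where 0.96% did.

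The 2 footprinted matches of Nfe2l2 were covered in part. The match in its intronic promoter region at +660 (chr2:75703977-75703985) had 3 of 9 bases in the footprint of replicate 1 and 6 in that of replicate 2. The match at +23077 (chr2:75681560-75681568), in a weak intronic region of 1.56 and 0.942, had 8 and 4. Both are shown on the plus strand with 20 bases on each side, for comparison with the fully covered sites above.
Nfe2l2 at +660: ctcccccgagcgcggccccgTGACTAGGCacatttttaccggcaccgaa
Nfe2l2 at +23077: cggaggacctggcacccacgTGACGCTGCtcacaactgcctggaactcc

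The Nqo1 promoter is a classical place of a response element, and TGACNNNGC did not match in any of its regions. After this was seen, TGAGNNNGC, with G at the fourth base, was also searched. It matched in 8 of 21 promoter regions, where 21% of all promoter regions held it, and in 7 of 52 distal regions, where 17.1% did. Of its 19 matches, 1 lay in a footprint of both libraries, beside 27.1% of such matches in all promoter regions and 14.2% in all distal regions. It was at Gclc, where it overlapped the edge of the footprint over the TGACTCAGC site. Nqo1 had a TGAGTCGGC at −431, and Srxn1 had the same 9 bases at −154. Neither lay in a footprint. Srxn1 had further promoter matches, each overlapped by a footprint of 1 library only. TGAGTCAGC at −41, which also holds TGANTCA, had 2 of 9 bases in a footprint of replicate 2. TGAGCCCGC at +429 had 3 of 9 bases in a footprint of replicate 1. A match and a missing footprint describe these letters and these cut counts only. Of the promoter sites, 3 are shown 5′ to 3′ on the strand of the match, that of Slc7a11 because it was the only match of either kind in that promoter.
Nqo1 at −431, chr8:107403633-107403641, minus strand: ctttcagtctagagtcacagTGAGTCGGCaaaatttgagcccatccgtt
Srxn1 at −154, chr2:152105366-152105374, minus strand: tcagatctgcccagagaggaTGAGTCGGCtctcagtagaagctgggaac
Slc7a11 at −92, chr3:50443702-50443710, plus strand: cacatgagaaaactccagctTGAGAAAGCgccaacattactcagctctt

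Other genes of the pathway were read in the same way from 3 lists. Of all protein-coding genes, 63% had an open promoter. All 12 regulators and related factors were open, with a median promoter signal of 7.33. The strongest were Gsk3b, a kinase that marks NRF2 for turnover, with a mean of 22.2 ± 4.01 (SD, n = 2), and Btrc, the ligase adaptor that reads this mark, with 21.5 ± 1.32. Of 20 further targets, 19 were open, with a median of 6.91, led by Blvrb (biliverdin reductase B, 20.2 and 16.5) and Gstm1 (a glutathione S-transferase, 16.3 and 12.4). Gpx2, the glutathione peroxidase best known from the gut, was the member that was not open. All 15 antioxidant enzymes not chosen as targets were open, with a median of 6.68, led by Gpx4 (the lipid hydroperoxide peroxidase, 19.01 and 18.8) and Sod2 (the mitochondrial superoxide dismutase, 13.4 and 15.1). The 10 genes thus had a lower median promoter signal than each of the 3 lists, and no test was made of this. The median number of distal regions was 3 for the regulators, 4 for the further targets and 4 for the enzymes. The 10 genes, also with 4, were thus not set apart from these lists by it. Gstm1 has near-identical paralogs, so reads there may be shared. A TGACNNNGC match in a footprint of both libraries was found at 33.3% of the regulators, 40% of the further targets and 40% of the enzymes, so the 3 of 10 genes (30%) were not above the other lists. A TGACTCAGC match in one was found at Mafg among the regulators, at Ephx1, Gstm1, Prdx1 and Tkt among the further targets, and at Gpx1 among the enzymes.

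The tissue label was checked on markers. The promoters of the proximal tubule genes Lrp2, Slc34a1 and Miox were open, as were those of Umod and Slc12a1 (thick ascending limb), Slc12a3 (distal convoluted tubule), Atp6v1b1 (collecting duct) and Pecam1 and Ehd3 (endothelium). Those of Aqp2 (collecting duct), Nphs1 (podocytes), Ptprc, Cd3e and Cd68 (immune cells), Apoa2 (hepatocytes) and Cyp11a1 (adrenal cortex) were not. Alb, a hepatocyte gene, was weakly open at 0.455 and 0.292, near the level of the Slc7a11 promoter. Cell types were not separated, so the values of the 10 genes are averages over the tissue.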

How the data were processed

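The authors deposited, for each of 2 DNase-seq libraries, a longer and a shorter peak list with a signal per peak, footprints, and runs of bases with an FDR (a p-value-type measure, none above 0.05), all on mm10 and made from that library's filtered alignments, per the file headers of the deposited text lists. The footprint files carry the constant p-value level 0.01. No aligner, caller or scaling of the signal is given in the sources used here. All signals were whole multiples (tolerance 0.05 steps) of a step of 0.00827 in replicate 1 and 0.00834 in replicate 2, which would mean 120.9 M tags (M, mega) in replicate 1 and 119.9 M in replicate 2 were each step a single tag in a signal scaled to 1 M. This is an inference, and no counting interval is given.

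Here, peaks of the longer lists (137060 and 124976 on chromosomes 1 to 19 and X) that overlapped by at least 1 base were joined into 96735 shared regions, across which Spearman's rho between libraries was 0.865 and the SD of the log2 ratio 0.63. Genes came from GENCODE M21. Distances run from the region's centre to the nearest coding TSS of the gene. Genes of like length had 4/5 to 5/4 of its length. Named were all 10 genes, their promoter regions, their strongest distal region, distal regions with a footprinted match, the top 2 genes of each other list and every gene not open. One marker gene is not reported here. The genes and lists were chosen with earlier results of these data known. Python 3.11.15, pandas 2.3.3 and numpy 2.4.6 were used, and joining and matching were tested on simulated data.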

Additional observations from a re-analysis of the deposited data

How the results depend on the processing

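No paired analysis was possible because the study has 1 group. The open promoters of the 10 genes (10 under every window, and 10 in each library alone) fell to 9 with the shorter peak lists and with the stronger 50% of peaks, where Slc7a11 was lost. The same settings lost Nfe2l3 among the regulators. With the shorter lists, the median promoter signal was 5.20 over the 9 genes left, which follows from the loss of Slc7a11, and it was 4.21 to 4.59 with 1 library left out. The 52 distal regions became 67 to 82 with 1 library left out, 32 in the gene body alone and 104 with 50 kb added. The median per gene became 5.5 to 7, 2 and 10.5, where that of all genes became 2 to 3, 1 and 6. With the shorter lists and with the stronger 50% of peaks, the distal regions of the 10 genes numbered 35 and 38. Footprints numbered 207 to 221 in 1 library alone, beside 132 in both, because both were no longer required. Bases listed at an FDR under 0.05 numbered 18569 to 19396, beside 18012. The 17 response element matches became 10 with the consensus 1 base longer, 5 as TGACTCAGC, and 36 with TGAGNNNGC added, which was chosen after seeing the data. Those in footprints of both libraries, 8, became 5 and 5. Of the results run under these settings, none with a direction of its own reversed, but the order of close neighbours did. In replicate 2 alone, the promoter of Gclc (6.08) was above that of Gclm (5.24) and that of Srxn1 (3.93) above that of Nqo1 (2.89). The comparisons of distal regions with promoters and of the list medians were not run under them. In replicate 1 alone, the strongest distal region was below the promoter at Nqo1 (4.08 and 4.10) and at Srxn1 (2.65 and 3.03), unlike by the mean. Whether depth limited the weakest regions, such as the Slc7a11 promoter, was not tested.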

Other observations

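Peaks in 1 library only were also present in the windows of the 10 genes. There were 48, of which 34 were in replicate 1 and 14 in replicate 2, with signals of 0.149 to 2.26 and a median of 0.492. They were 30.6% of the peaks of replicate 1 and 15.1% of those of replicate 2 in these windows, beside 27.5% and 20.6% over the whole series. The strongest was a peak of replicate 1 at −689 from the Nfe2l2 TSS (chr2:75705221-75705440), upstream of the start site and the only one of the 48 with a signal above 1. Nfe2l2 had 5 such peaks, all in replicate 1, and Slc7a11 had 7 in each library, none above 0.54. Txnrd1 had 5, and Hmox1 had 3, all in replicate 1.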
